A study of Mus musculus with 12 samples.

Results

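Toll-like receptors are membrane proteins of innate immune cells and epithelia that bind conserved microbial molecules, and in the colon they face the gut flora. Tlr1, Tlr2, Tlr4, Tlr5 and Tlr6 sit mainly at the cell surface and bind bacterial lipopeptides, lipopolysaccharide or flagellin. Tlr3, Tlr7, Tlr8 and Tlr9 sit in endosomes and bind nucleic acids. Each of these receptors except Tlr3 passes its signal through the adaptor MyD88 to the IRAK kinases, Traf6 and NF-kB. The genes described here are Tlr1 to Tlr9 and Myd88, taken by their symbols from the table of raw counts. They are 10 of the 18514 genes listed, and all 10 passed the filter on low counts.

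RNA of the colorectal tissue of 12 male C57BL/6 mice was sequenced with 1 library per mouse and 3 mice per group. The mice were bought at 4 weeks of age. Model and Model_Swim mice were given a single injection of the carcinogen azoxymethane (AOM) at 10 mg/kg and then drank 2% dextran sulfate sodium (DSS), which injures the colon lining, in 3 cycles. Ctrl and Ctrl_Swim mice received neither and drank plain water. Ctrl_Swim and Model_Swim mice swam for up to 90 min per day from before AOM until the end, while the other mice stood in shallow warm water. The tissue was whole colon, so that a lower level can mean fewer cells of a type or less RNA per cell, and these cannot be told apart.

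Levels are given as CPM, counts brought to a common library size by the trimmed mean of M values, for comparisons between mice, and as FPKM, which also divides by gene length, for comparisons between genes. A call is an adjusted p under 0.05 in the edgeR quasi-likelihood test over 15484 genes, and with 1 library per mouse the p-values measure the spread between mice. That spread is 1 estimate per gene shared by the 4 groups, although Model libraries differed more from each other. The chi-square per gene between the counts of 2 libraries was 77.1 to 115 in Model and 7.4 to 22.3 in the other groups, with the acinar genes described next included. Total counts per library lay between 17256953 and 19451055. Genes of pancreatic acinar cells summed to 54000 CPM in Model 1 and 26310 CPM in Model 3 against at most 452.7 CPM in each of the other 10 libraries. These genes do not belong to colon. Values of single pathway genes are given only with all libraries, but the main differences of members that involve the Model group are also given without Model 1 and Model 3. That fit leaves 1 Model mouse, so its p-values hold no spread between Model mice. Its differences are given without p, though it is counted among the alternatives and their ranges. Low levels of the same genes also divided the other libraries. By the median gene's share of its level in Model 1 and Model 3, all Ctrl libraries, Model 2 and Ctrl_Swim 3 lay over 0.05%, while Ctrl_Swim 2, Ctrl_Swim 4 and all Model_Swim libraries lay under it. Colon epithelium markers were abundant in all 12 libraries, with 10510 to 23010 CPM in sum.

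Per length, Tlr1 was the most abundant receptor and Tlr6, its close relative, the least abundant. The mean FPKM over 12 libraries was 21.9 ± 2.25 (SD) for Tlr1, 20.7 ± 1.92 for Myd88 and 12.2 ± 3.12 for Tlr2. Tlr3 followed with 6.82 ± 0.711 and Tlr4 with 5.35 ± 0.752. Tlr9 (1.43 ± 0.502), Tlr5 (1.39 ± 0.338), Tlr7 (1.28 ± 0.582), Tlr8 (0.800 ± 0.283) and Tlr6 (0.466 ± 0.151) made up a low tier on the FPKM scale. The gap between the tiers was 3.73-fold from Tlr4 to Tlr9, the widest of the ordering, and Tlr4 was higher than Tlr9 in 12 of 12 libraries. Neighbours that did not separate were Tlr1 and Myd88, with Tlr1 higher in 9 of 12 libraries, and Tlr5 with Tlr9 and Tlr7. Tlr3 was higher than Tlr4 in 11 of 12 libraries. Among the 15484 tested genes the mean FPKM of the members ran from the 10.3 percentile for Tlr6 to the 78.6 percentile for Tlr1.

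**Figure D1:**
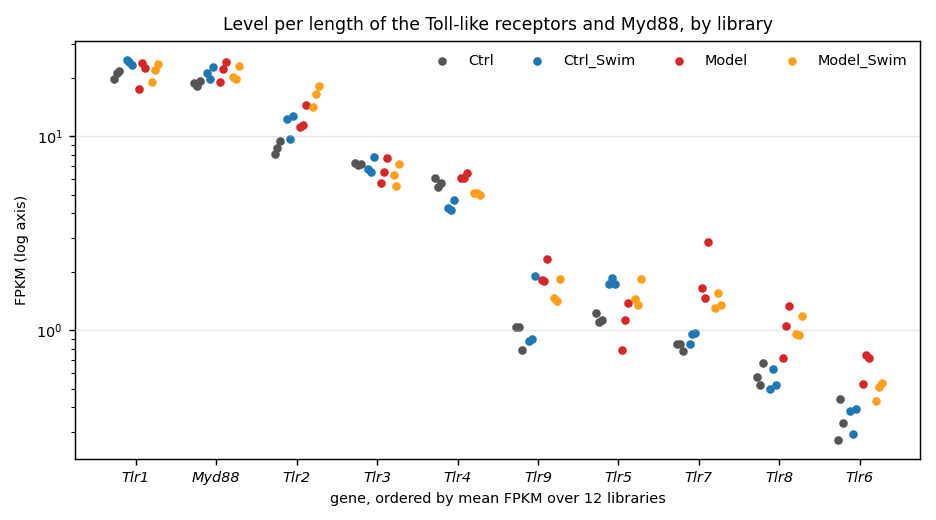
FPKM of each member (log axis) in each of the 12 libraries, coloured by group and ordered by the mean over libraries. Tlr1 and Myd88 lead at 17.4 to 24.8 FPKM, Tlr9, Tlr5, Tlr7, Tlr8 and Tlr6 reach at most 2.85 FPKM in any library, and the points of Tlr7 spread most between groups.

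The low tier limits precision. Tlr6 had 23 to 57 reads per library, Tlr8 50 to 124, Tlr9 53 to 139 and Tlr7 60 to 196, whereas Tlr1 had 1138 to 1643. Tlr1 and Tlr6 lie next to each other on chromosome 5 (GRCm38.p6, 64924680 to 64933600 and 64953092 to 64970942) and share sequence. Of the stretches of 50 bases in Tlr6 exons, 12.3% also occurred in Tlr1, and reads there could not be assigned by sequence alone. No other pair of members shared such a stretch. Tlr7 and Tlr8 lie next to each other on chromosome X, and Tlr9 and Myd88 lie far apart on chromosome 9. Of the exonic bases of Myd88, 11.3% overlap the gene Acaa1a on the opposite strand, and 7.32% of those of Tlr3 overlap an antisense transcript, Gm45542. The library kit marks strand, but the strand setting of the read counting is not given in the sources used here.

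Promoter entries of RefSeq (GRCm38.p6, 250 bases before to 50 bases after a start site) were found for all members except Tlr4 and Tlr7, 8 of the 10, with 10 promoters in all. Those of Tlr2, Tlr6, Tlr8 and Tlr9, which rose with AOM/DSS over both swimming states as described further on, and of Myd88, which did not pass the test, are shown to let the starts be compared. Capitals mark matches, on either strand, to the NF-kB motif, GGGA and CC with any 4 bases between (in 20.7% of 32851 promoters of this length), the interferon response motif, GAAA repeated after any 2 bases (3.44%), the PU.1 motif GAGGAAG (13.6%) and the TATA motif TATAAA (13.6%).
Tlr2 (GRCm38.p6 chr3:83841559-83841858, minus strand): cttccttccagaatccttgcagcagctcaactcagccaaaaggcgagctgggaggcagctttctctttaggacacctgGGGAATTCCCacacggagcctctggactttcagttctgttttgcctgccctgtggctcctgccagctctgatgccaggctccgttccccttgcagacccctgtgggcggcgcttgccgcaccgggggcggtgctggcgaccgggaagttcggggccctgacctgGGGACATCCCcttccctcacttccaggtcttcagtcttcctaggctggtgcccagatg
Tlr6 (GRCm38.p6 chr5:64959117-64959416, minus strand): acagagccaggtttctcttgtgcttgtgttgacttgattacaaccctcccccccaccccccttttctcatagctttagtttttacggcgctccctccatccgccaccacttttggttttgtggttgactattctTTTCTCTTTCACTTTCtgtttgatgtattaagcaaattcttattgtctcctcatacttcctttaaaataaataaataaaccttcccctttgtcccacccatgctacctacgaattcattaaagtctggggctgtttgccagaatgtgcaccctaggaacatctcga
Tlr8 (GRCm38.p6 chrX:167264280-167264579, minus strand): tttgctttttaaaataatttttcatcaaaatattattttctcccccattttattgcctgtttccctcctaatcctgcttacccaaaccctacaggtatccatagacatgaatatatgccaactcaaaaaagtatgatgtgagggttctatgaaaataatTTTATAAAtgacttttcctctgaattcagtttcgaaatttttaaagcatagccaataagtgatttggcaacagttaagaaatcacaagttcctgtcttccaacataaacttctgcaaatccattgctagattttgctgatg
Tlr9 (GRCm38.p6 chr9:106222348-106222647, plus strand): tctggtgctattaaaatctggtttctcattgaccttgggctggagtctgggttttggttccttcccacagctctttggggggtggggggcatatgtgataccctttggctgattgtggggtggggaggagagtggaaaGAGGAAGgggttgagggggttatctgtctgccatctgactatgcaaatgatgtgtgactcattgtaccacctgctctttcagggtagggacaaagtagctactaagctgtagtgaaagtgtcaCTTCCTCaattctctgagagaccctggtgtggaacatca
Myd88 (GRCm38.p6 chr9:119339969-119340268, minus strand): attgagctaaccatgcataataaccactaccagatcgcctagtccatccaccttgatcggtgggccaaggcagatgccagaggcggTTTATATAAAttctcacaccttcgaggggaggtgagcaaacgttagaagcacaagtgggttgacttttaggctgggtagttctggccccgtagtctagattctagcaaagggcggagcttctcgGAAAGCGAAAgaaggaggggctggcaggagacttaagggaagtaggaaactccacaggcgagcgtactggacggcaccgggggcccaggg
Tlr2 held the NF-kB motif at 172 and 8 bases before its start site. The Tlr6 promoter shown held a pair of overlapping interferon response motifs at 116 and 110 bases before the start. Myd88 held that motif at 40 bases before its start. The other Tlr6 promoter (chr5:64959999-64960298), not shown, held only TATA letters, at 180, 150 and 109 bases before its start. PU.1 motifs stood in Tlr9 at 112 bases before and 11 bases after the start. The Tlr8 window held only TATA letters, in overlapping matches on both strands at 91 and 89 bases before the start. NF-kB motifs also stood in the promoters of Tlr3 and Tlr5, and a PU.1 motif stood in a Tlr1 promoter at 23 bases before the start. Tlr1, Tlr3 and Tlr5 were not called in any comparison.

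The first comparison asked how the receptors stood after AOM/DSS without swimming. In Model against Ctrl mice 4 of the 10 members were higher and none was lower, all of them of the low tier: Tlr7, Tlr9, Tlr6 and Tlr8. Over all tested genes 32.7% were called in either direction, 16.5% were called higher and 16.2% lower, so the 4 of 10 in either direction is near the background. The median log2 difference was 0.24 over the 10 members and 0.01 over all tested genes. Without Model 1 and Model 3 together, the log2 difference was 0.66 for Tlr7, 0.75 for Tlr9, 0.93 for Tlr6 and 0.67 for Tlr8. With 1 Model mouse left, that fit cannot test whether the calls hold.

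Tlr7, the endosomal receptor for single-stranded RNA, had 3.64, 3.54 and 3.30 CPM in Ctrl mice and 6.49, 5.61 and 11.3 CPM in Model mice. Each Model mouse lay above each Ctrl mouse, and Model 3 was by far the highest. Tlr7 rose by 1.15 on the log2 scale (SE 0.24, adjusted p = 0.00495), the only member past a fold change of 2, where 7.43% of all tested genes were called past that fold in either direction. It stayed called in 22 of 23 alternatives, with a difference of 0.80 without Model 3. Without Model 1 and Model 3 together, which leaves 1 Model mouse, the difference was 0.66. The exception was a fit with the acinar marker level as a covariate (0.74, adjusted p = 0.102; the adjusted p over all alternatives ran from 0.000218 to 0.102).

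Tlr9, the endosomal receptor for unmethylated CpG DNA, had 3.86, 3.76 and 2.91 CPM in Ctrl mice and 6.22, 5.99 and 7.98 CPM in Model mice. The groups did not overlap, and Tlr9 rose by 0.94 (SE 0.28, adjusted p = 0.0246). The call was lost without Ctrl 2 (adjusted p = 0.0574), Ctrl 3 (0.0855) or Model 3 (0.0573) and with the acinar covariate (0.134), while the difference stayed between 0.81 and 1.01 in these fits.

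Tlr6, which pairs with Tlr2 to bind diacylated lipopeptides, had 1.27, 2.02 and 1.54 CPM in Ctrl mice and 2.25, 3.11 and 3.10 CPM in Model mice. The groups did not overlap. Tlr6 rose by 0.81 (SE 0.26, adjusted p = 0.0381), and the call was lost without Ctrl 1 (adjusted p = 0.112), Ctrl 3 (0.0921), Model 2 (0.0985) or Model 3 (0.078). It was also lost with the acinar covariate (0.0673) and in a fit of Model and Ctrl alone (0.0817).

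Tlr8, the neighbour and relative of Tlr7, had 3.31, 2.94 and 3.90 CPM in Ctrl mice and 3.81, 5.45 and 7.12 CPM in Model mice. Model 1 lay within the Ctrl range, so the groups overlapped. Tlr8 rose by 0.69 (SE 0.24, adjusted p = 0.045), but the call held in only 11 of 23 alternatives. It was lost without any of the Ctrl mice (adjusted p = 0.0974, 0.126 and 0.0555 without Ctrl 1, Ctrl 2 and Ctrl 3), without Model 2 (0.0833), Model 3 (0.141), Model_Swim 1 (0.0521) or Model_Swim 2 (0.0532). The acinar covariate (0.161) and a fit of Model and Ctrl alone (0.105) also lost it.

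Tlr2, the lipopeptide receptor that pairs with Tlr1 or Tlr6, just missed the threshold. Its values were 26.7, 28.1 and 30.8 CPM in Ctrl mice and 33.8, 33.9 and 44.2 CPM in Model mice, without overlap, and the log2 difference was 0.39 (SE 0.14, adjusted p = 0.0521, from 0.0199 to 0.329 over the alternatives). Without Model 1 and Model 3 together the Tlr2 difference was 0.23. With Tlr2, 4 members had groups that did not overlap, against 44.2% of all tested genes. Tlr1, Tlr3, Tlr4, Tlr5 and Myd88 did not pass the test and their groups overlapped. Tlr3 had a log2 difference of -0.22 (95% interval -0.48 to 0.03), which passed the test as a decrease only without Model 3 (-0.34, adjusted p = 0.0276, from 0.0276 upward over the alternatives). For Tlr4 the interval was -0.15 to 0.13, and for Myd88 it was -0.11 to 0.31, so differences larger than these were outside the 95% intervals.

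**Figure D2:**
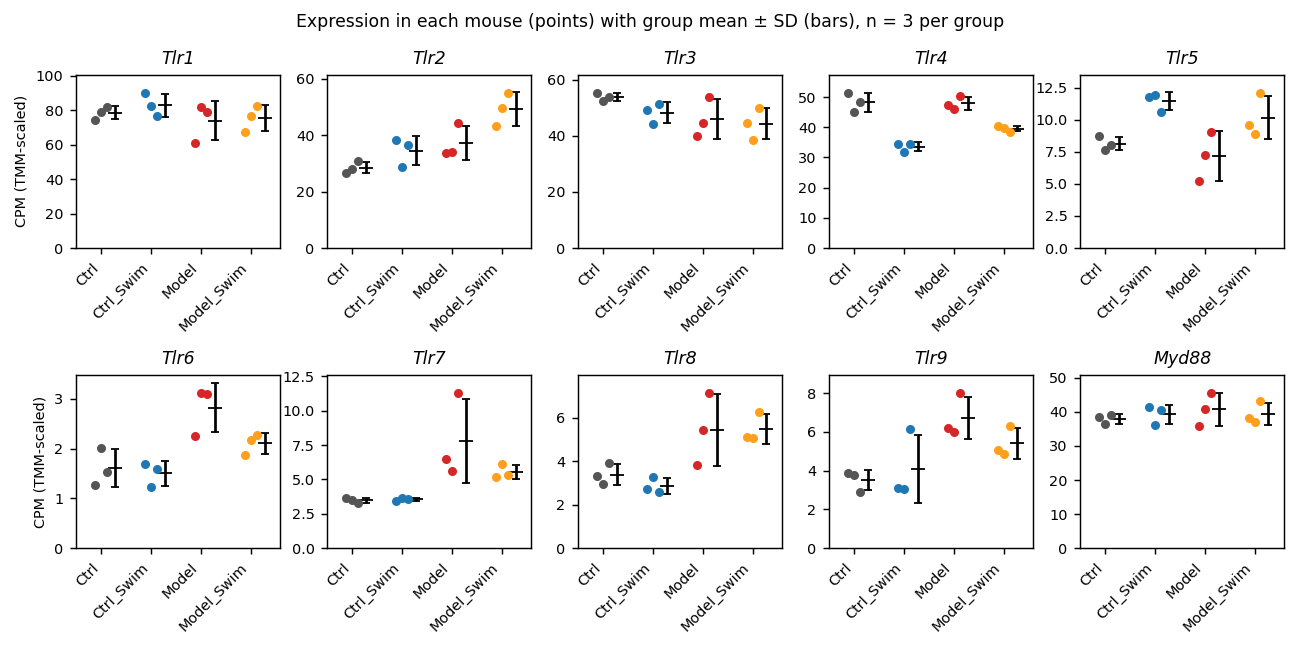
CPM of each member in each mouse by group (points), with the group mean ± SD (bars, n = 3), each panel on its own axis from 0. Tlr2, Tlr6, Tlr7 and Tlr9 in Model mice lie above all Ctrl mice, and Tlr4 is lower in both swimming groups than in both groups that did not swim.

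The same question in swimming mice compared other animals, since Model_Swim and Ctrl_Swim share no library with Model and Ctrl. The spread was still estimated in 1 fit of all 12 libraries, so the p-values also depend on the Ctrl and Model mice. Here 1 of the 10 members was called, Tlr8, where 5.18% of all tested genes were called and 3.49% were called higher. Tlr8 had 2.74, 3.30 and 2.61 CPM in Ctrl_Swim mice and 5.12, 5.06 and 6.26 CPM in Model_Swim mice. The groups lay well apart, and Tlr8 rose by 0.93 (SE 0.24, adjusted p = 0.0482). The adjusted p was close to the threshold and crossed it in 17 of 23 alternatives (0.0115 to 0.14), among them all fits without 1 of the 3 Ctrl, 3 Ctrl_Swim or 3 Model_Swim mice and the fit without Model 2 (0.0555). The log2 difference in the fits that left out 1 mouse stayed between 0.81 and 1.03.

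Tlr2, Tlr4, Tlr6, Tlr7 and Tlr8 did not overlap between Model_Swim and Ctrl_Swim mice, all with the higher values in Model_Swim. That is 5 of 10 members, against 32.4% of all tested genes that did not overlap and 15.9% that did so with higher values in Model_Swim. Tlr7 had 3.45, 3.67 and 3.58 CPM in Ctrl_Swim and 5.17, 6.09 and 5.30 CPM in Model_Swim (log2 difference 0.63, adjusted p = 0.147). In the fit without Model 3, Tlr2 (0.0228), Tlr4 (0.0477), Tlr7 (0.032) and Tlr8 (0.0229) all had adjusted p under 0.05. Tlr9, called in the mice that did not swim, differed by 0.40 (SE 0.27, adjusted p = 0.429) and its groups overlapped, since Ctrl_Swim 4 alone had 6.13 CPM against 3.12 and 3.03 CPM in the other Ctrl_Swim mice. Without Ctrl_Swim 4 the Tlr9 difference was 0.81 (adjusted p = 0.0752).

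A contrast of all 6 AOM/DSS mice with the 6 others in the same fit, added after the separate comparisons had been seen and sharing their libraries, called 5 of 10 members, all higher. Over all tested genes 33.4% were called and 17.0% were called higher. Each of the 6 AOM/DSS mice had more Tlr7 than each of the 6 others, which held for 12.4% of all tested genes in either direction. Tlr7 rose by 0.89 (SE 0.17, adjusted p = 0.00274). Tlr8 rose by 0.81 (SE 0.17, adjusted p = 0.00454) and Tlr2 by 0.45 (SE 0.10, adjusted p = 0.00558). These 3 receptors stayed called in all 22 alternatives of this contrast. Tlr6 (0.65, adjusted p = 0.0222) lost its call in 1 of 20 alternatives, the library division as a term (0.0543). Tlr9 (0.67, adjusted p = 0.0223) lost its call in 7 of 22. Its adjusted p was 0.0767 with the acinar covariate and 0.0509 with the library division as a term. It was 0.0561 without Ctrl 3, 0.0528 without Ctrl_Swim 2, 0.0504 without Ctrl_Swim 3 and 0.0551 without Model_Swim 3. Without Model 1 and Model 3 together the Tlr9 difference was 0.57.

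Sums of cell type markers also differed between the groups. Macrophage markers, 12 genes led by Lyz2 and Csf1r, summed to 450.4 to 477.0 CPM in Ctrl, 436.1 to 574.8 in Ctrl_Swim, 802.1 to 946.8 in Model and 734.7 to 877.6 in Model_Swim. The dendritic cell markers, 8 genes, summed to 25.3 to 32.0 CPM in Ctrl and 45.5 to 53.6 CPM in Model, while Ctrl_Swim (29.6 to 53.1 CPM) and Model_Swim (39.4 to 53.8 CPM) overlapped. The 9 B cell markers summed to 41.1 to 87.2 CPM in Ctrl, 57.0 to 182.8 in Ctrl_Swim, 167.3 to 198.4 in Model and 56.9 to 90.1 in Model_Swim. The library Ctrl_Swim 4, the highest of its group for Tlr9, was also the highest of its group for the B cell (182.8 CPM), T cell (80.7), macrophage (574.8), dendritic cell (53.1), plasmacytoid dendritic cell (13.7), endothelial (350.5) and squamous epithelium (417.2) markers. The colon epithelium markers were lower in Model (10510 to 14690 CPM) than in Ctrl (19620 to 21860 CPM), while Model_Swim (17590 to 17850 CPM) and Ctrl_Swim (17160 to 23010 CPM) overlapped. Fibroblast markers summed to 1365 to 1506 CPM in Ctrl, 1242 to 1487 in Ctrl_Swim, 2387 to 2709 in Model and 1834 to 2441 in Model_Swim. Squamous epithelium markers, which colon lacks, summed to 4.23 to 7.18 CPM in Ctrl, 3.09 to 417.2 in Ctrl_Swim, 4.59 to 1479 in Model and 115.3 to 1066 in Model_Swim, so they varied widely inside groups as well. None of the macrophage, dendritic or B cell markers was at 0 in a whole group, and the part of these cells in the rise of the receptors was not tested.

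**Figure D3:**
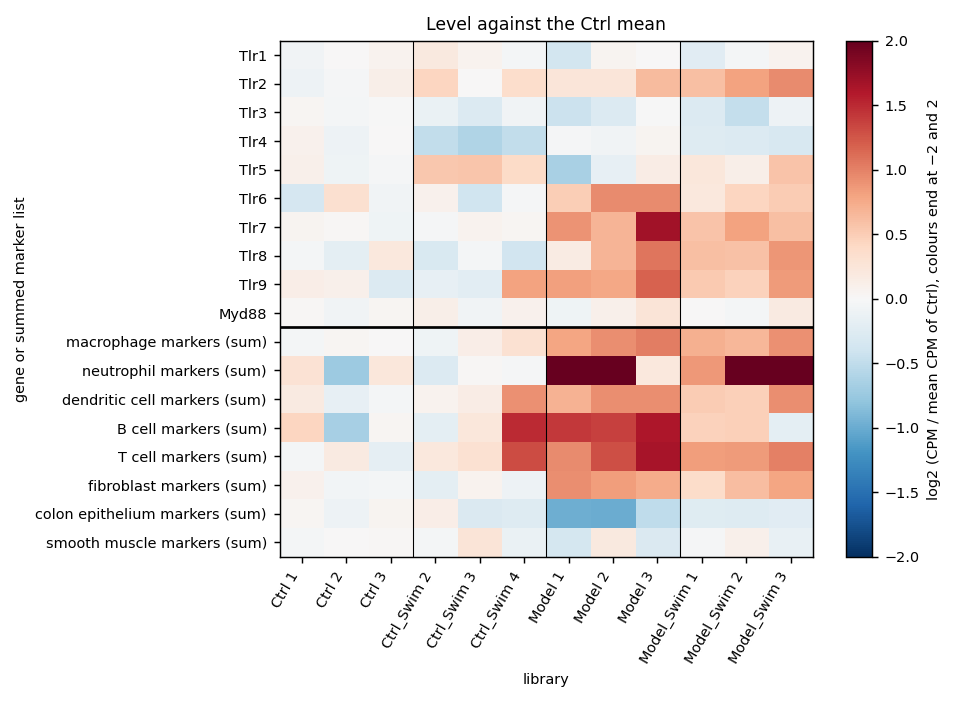
Log2 ratio of each library to the Ctrl mean, for the members (upper rows) and for the summed CPM of marker lists (lower rows), with colours ending at -2 and 2. Tlr6 to Tlr9 are higher in the AOM/DSS libraries, as are the macrophage sums, while Tlr4 is lower in all 6 swimming libraries and Myd88 stays near the Ctrl mean.

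Tlr4, the lipopolysaccharide receptor, was the member that differed with swimming. In mice without AOM/DSS it had 51.3, 45.1 and 48.4 CPM in Ctrl and 34.4, 31.8 and 34.5 CPM in Ctrl_Swim. Each swimming mouse lay below each Ctrl mouse, and within a group the values were close together. Tlr3 (44.3 to 51.5 CPM in Ctrl_Swim against 52.4 to 55.3 CPM in Ctrl) and Tlr5 did not overlap here either and were not called. The share of all tested genes without overlap is not given for Ctrl_Swim against Ctrl or for Model_Swim against Model. It was 44.2% in Model against Ctrl and 32.4% in Model_Swim against Ctrl_Swim, so a lack of overlap between groups of 3 mice does not by itself set a member apart. Tlr4 fell by 0.53 on the log2 scale (SE 0.07, adjusted p = 0.0175). It was the only 1 of the 10 members called in this comparison, where 0.969% of all tested genes were called. The call was lost without Ctrl 1 (adjusted p = 0.0963), Ctrl 3 (0.0677) or Ctrl_Swim 3 (0.0903). It was also lost with the replicate block (0.15), with the library division as a term (0.295) and in each limma fit on FPKM (0.0504 to 0.0769). The log2 difference ran from -0.60 to -0.33 over all 23 alternatives (adjusted p from 6.12e-07 to 0.295).

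In mice with AOM/DSS, Tlr4 had 47.4, 46.2 and 50.3 CPM in Model and 40.3, 39.8 and 38.5 CPM in Model_Swim, again without overlap. The log2 difference was -0.28 (SE 0.07), and -0.21 without Model 1 and Model 3 together. With all libraries it did not pass the test (adjusted p = 0.136), in a comparison that called 0 of 10 members and 0.0710% of all tested genes. DESeq2 called Tlr4 alone there (adjusted p = 0.0477), and 3 members, Tlr2, Tlr4 and Tlr5, had an unadjusted edgeR p under 0.05, against 13.6% of all tested genes. The difference in the Tlr4 response between mice with and without AOM/DSS was 0.25 (SE 0.09, adjusted p = 0.186). No gene passed the test of that interaction with edgeR (0% called, 19.0% at an unadjusted p under 0.05), 1 of the 10 members had an unadjusted p under 0.05 and DESeq2 called 0 members.

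With both pairs of groups averaged, Tlr4 was lower in swimming mice by 0.40 (SE 0.05, adjusted p = 0.00661), where 0.652% of all tested genes were called. All 6 swimming mice, at 31.8 to 40.3 CPM, lay below all 6 others, at 45.1 to 51.3 CPM, an arrangement that 0.697% of all tested genes had in either direction. The call held in 20 of 22 alternatives, including each fit without 1 mouse. It was lost with the acinar covariate (-0.38, adjusted p = 0.176) and with the library division as a term (-0.50, adjusted p = 0.871), under which swimming is compared through Ctrl_Swim 3, the only swimming library over the division. Ctrl_Swim 3 had the lowest Tlr4 level of all 12 libraries. The acinar marker sums separated the swimming mice in the same way as Tlr4. They were 101.7 to 176.9 CPM in Ctrl_Swim and 149.0 to 164.6 CPM in Model_Swim, against 299.9 to 452.7 CPM in Ctrl and 218.4 to 54000 CPM in Model. The part of these levels, or of what lies behind them, in the Tlr4 difference was not tested beyond those fits.

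Tlr4 works with Ly96, which completes its ligand pocket, and with Cd14, which hands it lipopolysaccharide. Ly96 and Cd14 were not called in any comparison of single groups. The macrophage marker sum was 436.1 to 574.8 CPM in Ctrl_Swim against 450.4 to 477.0 CPM in Ctrl, and 734.7 to 877.6 CPM in Model_Swim against 802.1 to 946.8 CPM in Model, with overlap in both pairs and the lower mean in Model_Swim (790.0 against 876.9 CPM). Paneth cell markers were lower, with sums of 332.0 to 595.5 CPM in Ctrl_Swim against 2391 to 3246 CPM in Ctrl, but in Model_Swim (668.3 to 1314 CPM) and Model (598.4 to 1182 CPM) they overlapped. Sums of 3 other lists were higher in Ctrl_Swim than in Ctrl without overlap, with 264.0 to 350.5 against 219.1 to 228.0 CPM for endothelial, 37.5 to 80.7 against 28.9 to 37.0 CPM for T cell and 7.12 to 13.7 against 5.39 to 6.46 CPM for plasmacytoid dendritic cell markers. The part of these cells in the Tlr4 difference was not tested.

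Tlr5, the flagellin receptor, lay the other way. It had 8.72, 7.69 and 8.03 CPM in Ctrl and 11.8, 11.9 and 10.6 CPM in Ctrl_Swim, without overlap, with a log2 difference of 0.49 (SE 0.19, adjusted p = 0.225). In mice with AOM/DSS it had 5.20, 7.25 and 9.07 CPM in Model and 9.58, 8.87 and 12.1 CPM in Model_Swim, with a log2 difference of 0.51 (SE 0.19, adjusted p = 0.291). The Model values were widely spread, and the groups overlapped. Over both pairs the difference of 0.50 did not pass the edgeR test (adjusted p = 0.134, from 0.0171 to 1.0 over the alternatives) and was called by DESeq2 (0.0243) and without Model 3 (0.0171). For Tlr2 the difference of 0.34 (adjusted p = 0.16) was called by DESeq2 (0.0386) and without Model 3 (0.0235), but with the library division as a term the Tlr2 difference was 0.02.

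Model_Swim mice had the highest Tlr2 of the study, with 43.2, 49.8 and 54.9 CPM against 33.8, 33.9 and 44.2 CPM in Model. Model 3 lay within the Model_Swim range. The log2 difference was 0.40 (SE 0.14, adjusted p = 0.263), and without Model 3 both Tlr2 (0.55, adjusted p = 0.0347) and Tlr5 (0.72, adjusted p = 0.0421) were called between Model_Swim and Model. Without Model 1 and Model 3 together the difference was 0.56 for Tlr2 and 0.51 for Tlr5.

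**Figure D4:**
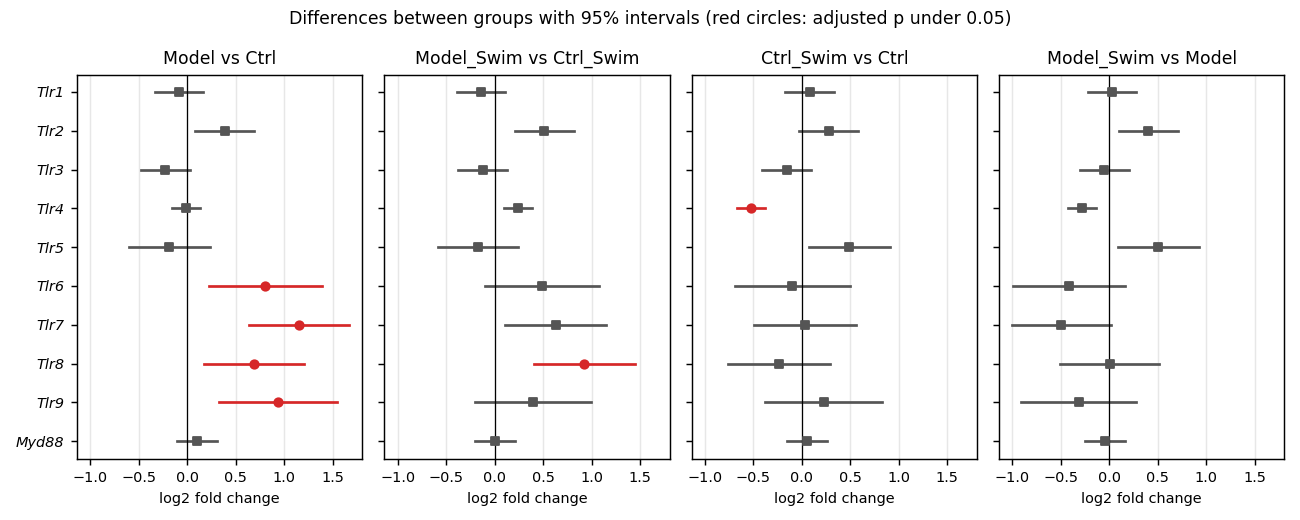
Log2 difference of each member with its 95% interval in the 4 comparisons of single groups, with called members as red circles and the others as grey squares. Tlr6 to Tlr9 lie to the right in Model against Ctrl, Tlr8 alone is called in Model_Swim against Ctrl_Swim, and Tlr4 alone is called, to the left, in Ctrl_Swim against Ctrl.

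For Tlr6, Tlr7 and Tlr9, the members called higher without overlap in Model mice, the Model_Swim means were nearer to Ctrl than the Model means. Tlr2 also did not overlap there, was not called and went the other way. Its mean was 28.5 CPM in Ctrl, 37.3 in Model and 49.3 in Model_Swim. Tlr6, Tlr7 and Tlr9 were picked because the same Model libraries lay high against Ctrl. A Model_Swim mean nearer to Ctrl can follow from that choice alone. Tlr7 had a mean of 7.78 ± 3.03 CPM (SD, n = 3) in Model and 5.52 ± 0.497 CPM in Model_Swim, a log2 difference of -0.49 (95% interval -1.003 to 0.02, adjusted p = 0.383). This difference rested on Model 3, since it was -0.12 without that library, -0.0063 without Model 1 and Model 3 together and 0.049 with the acinar covariate. For Tlr6 the difference was -0.42 (interval -0.99 to 0.16) and for Tlr9 it was -0.32 (interval -0.91 to 0.28). Without Model 3 these were -0.33 for Tlr6 and -0.17 for Tlr9, and without Model 1 and Model 3 together they were -0.54 and -0.13. None of these differences passed the test and the groups overlapped in each. Tlr8 had nearly the same mean in both groups, 5.46 ± 1.66 CPM in Model and 5.48 ± 0.675 CPM in Model_Swim, with an interval of -0.50 to 0.52 for the log2 difference.

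Myd88, the adaptor, varied least of all members. Its CPM ran from 35.8 in Model 1 to 45.4 in Model 3, a range of 1.27-fold over 12 libraries, against 3.41-fold for Tlr7. The coefficient of variation of its CPM was 7.57%, against 9.73% for Tlr1, 11.6% for Tlr3 and 44.3% for Tlr7. The group means of Myd88 were 38.0 ± 1.48 CPM in Ctrl, 39.3 ± 2.75 in Ctrl_Swim, 40.7 ± 4.80 in Model and 39.5 ± 3.24 in Model_Swim, and every pair of groups overlapped. For the contrast of AOM/DSS over both swimming states the 95% interval was -0.09 to 0.20, and for swimming it was -0.14 to 0.15. Tlr1 was likewise not called in any comparison, with 61.0 to 90.02 CPM over the 12 libraries and an interval of -0.29 to 0.06 for AOM/DSS.

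Since Tlr2 signals as a pair with Tlr1 or with Tlr6, the FPKM ratios of these genes within each mouse are also of interest, given here as descriptions. The Tlr1 to Tlr2 ratio was 2.39 ± 0.0678 in Ctrl, 2.11 ± 0.338 in Ctrl_Swim, 1.73 ± 0.310 in Model and 1.33 ± 0.0279 in Model_Swim. It was over 1 in all 12 mice, and its range in Model_Swim (1.30 to 1.35) lay below all the other mice. The Tlr1 to Tlr6 ratio was 61.6 ± 12.4 in Ctrl, 68.6 ± 12.1 in Ctrl_Swim, 32.1 ± 0.985 in Model and 43.7 ± 0.556 in Model_Swim. Each AOM/DSS mouse had a lower Tlr1 to Tlr6 ratio than each other mouse. The Tlr6 to Tlr2 ratio was at most 0.0650 in any mouse.

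The rest of the pathway was read from 8 lists with 60 genes, of which 57 were tested. In Model against Ctrl 25 of the 57 were called, 22 higher and 3 lower, against 32.7% of all tested genes called, 16.5% higher and 16.2% lower, with a median log2 difference of 0.29 against 0.01 over all tested genes. In Model_Swim against Ctrl_Swim 9 were called, all higher, against 5.18% of all tested genes called and 3.49% called higher. Neither swimming comparison called any of the 57 with edgeR, with 3 genes in Ctrl_Swim against Ctrl and 9 in Model_Swim against Model at an unadjusted p under 0.05, against 17.6% and 13.6% of all tested genes. DESeq2 called 1 gene in the former and 0 in the latter. Averaged over swimming, AOM/DSS gave 31 calls among the 57, 27 of them higher, against 33.4% of all tested genes called and 17.0% called higher. The higher calls with AOM/DSS include inflammatory targets such as Cxcl2, which could pass the filter on low counts only through groups where it was higher. All lists were chosen with earlier results of these data known, so the counts of higher calls are descriptions and no separate support.

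Among the other receptors and adaptors, Tlr13, a mouse receptor for bacterial ribosomal RNA, rose in Model mice by 0.96 (SE 0.26, adjusted p = 0.0167), the 1 of 3 in its list. Of 5 adaptors besides MyD88, Ticam2, which couples Tlr4 to Ticam1, rose by 1.33 (adjusted p = 0.0186) and Pik3ap1 rose by 1.07 (adjusted p = 0.0138). Ticam1, the TRIF adaptor of Tlr3 and Tlr4, fell by 0.38 (adjusted p = 0.0206).

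Of 7 co-receptors and ligand carriers, 3 rose and 1 fell. Cd180 (1.34, adjusted p = 0.0184) and its partner Ly86 (1.04, adjusted p = 0.00944), a receptor pair known from B cells, rose, as did Lbp (0.73, adjusted p = 0.0257), which carries lipopolysaccharide in plasma. Of the 4 genes for folding and trafficking, Unc93b1, which takes the nucleic acid receptors to endosomes, rose by 0.44 (adjusted p = 0.00568) and Nrros rose by 0.97 (adjusted p = 0.0172).

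The kinases and ligases that follow MyD88 moved little. Of 11, only Ikbkb (0.39, adjusted p = 0.00237) rose and Chuk fell by 0.34 (adjusted p = 0.00455), both subunits of the kinase that releases NF-kB. Irak1, Irak4, Traf6 and Map3k7 were not called in Model against Ctrl. Of 7 genes of the interferon branch Irf5 (1.09, adjusted p = 0.00199), a transcription factor activated after MyD88, and Traf3 (0.30, adjusted p = 0.00519) rose. Of 8 negative regulators Tnfaip3 (0.81, adjusted p = 0.00289) and Cyld (0.26, adjusted p = 0.0249), both deubiquitinases, rose.

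The inflammatory targets showed the largest differences. Of 12 tested genes 9 were called higher in Model than in Ctrl and 0 lower. Over all tested genes 16.5% were called higher and 16.2% lower. The list held 15 genes, of which the others were not tested, and was chosen with earlier results of these data known. Il1b, which encodes interleukin 1 beta, had 0.818 to 1.38 CPM in Ctrl and 6.37 to 24.7 CPM in Model and rose by 4.09 (SE 0.55, adjusted p = 0.000737). Cxcl1 and Cxcl2, neutrophil chemokines, were also called. They had 1 to 6 and 1 to 2 reads per library in Ctrl, too few for a fold change, and 22 to 172 and 4 to 99 reads in Model. With so few Ctrl reads, they could pass the filter on low counts only through groups where they were higher. Their direction is therefore no separate support, and the 9 genes called higher include both. In Model_Swim against Ctrl_Swim Il1b rose by 3.69 (adjusted p = 0.00609) and Nos2, the inducible nitric oxide synthase, by 3.43 (adjusted p = 0.00938), along with Tnfaip3 (0.74, adjusted p = 0.0224), Lbp (1.03, adjusted p = 0.0255) and Traf3 (0.26, adjusted p = 0.0398). Neutrophil markers, 10 genes, summed to 11.2 to 22.6 CPM in Ctrl, where 1 of them was at 0 in all 3 libraries, and 21.4 to 135.8 CPM in Model, and to 15.3 to 18.9 CPM in Ctrl_Swim and 33.7 to 174.3 CPM in Model_Swim, and their part in the level of these targets was not tested.

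**Figure D5:**
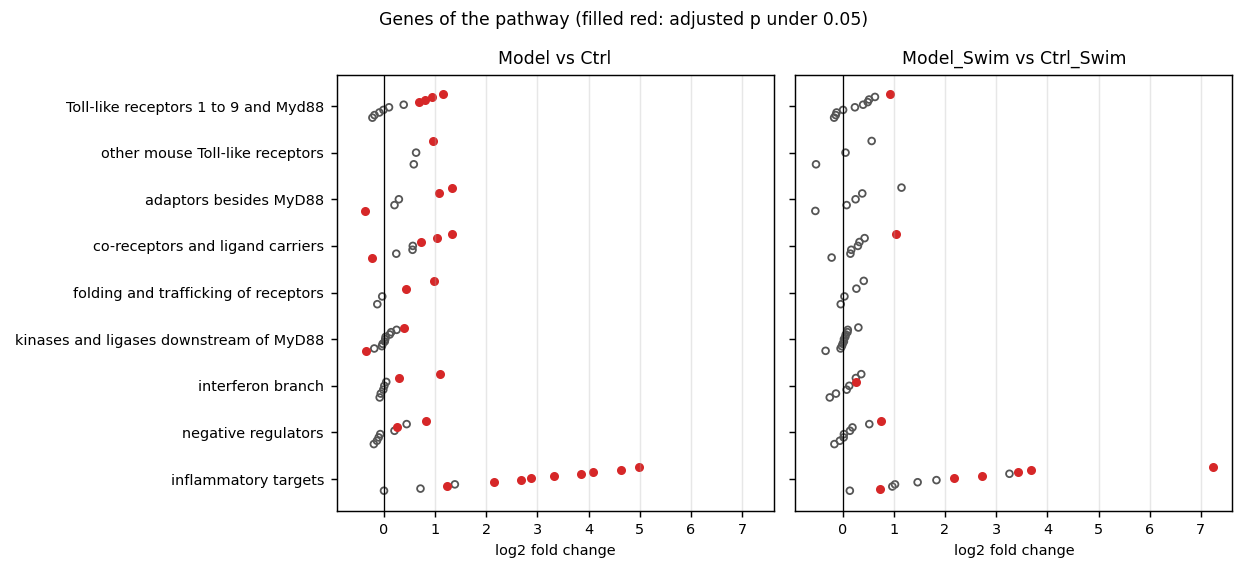
Log2 difference of each tested gene (points) by list, in Model against Ctrl (left) and Model_Swim against Ctrl_Swim (right), with called genes filled red. The inflammatory targets reach 4.98 on the left and 7.23 on the right, values that rest on few control reads of Cxcl2, while the kinases and ligases stay between -0.34 and 0.39.

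Genes whose log2 CPM over the 12 libraries was most like each member, among 13982 genes with a mean of at least 1 CPM, are given as a description, since the libraries share groups and depth. For Tlr9 they were Spn (Pearson r = 0.976), Selplg (0.961) and Dennd1c (0.952), and the first 2 are surface proteins of leukocytes. After each group's mean was taken away, Spn still had r = 0.942 with Tlr9. For Tlr7 they were Stab1 (0.942), a scavenger receptor of macrophages, Ssc5d (0.926) and Syk (0.925), and for Tlr8 they were Tgfbr1 (0.930), Ssc5d (0.929) and Tmem140 (0.928). Among the members themselves Tlr8 and Tlr7 were the most alike (0.813), but within groups their r was 0.496. For Tlr4 the genes were Golt1b (0.947), Chac1 (0.943) and Sdf2l1 (0.937), which act in the secretory pathway or its stress response, and within groups the 3 values fell to between 0.467 and 0.472. For Tlr2 the closest was Mylip (0.899), for Tlr6 Grk5 (0.930), for Tlr5 Gdpd2 (0.923), for Tlr3 C6 (0.879), for Tlr1 Abhd16a (0.866) and for Myd88 Drp2 (0.927).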

How the data were processed

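RNA sequencing of mouse colorectal tissue gave 12 libraries, 1 per mouse, in 4 groups of 3. Raw counts per gene were deposited by the authors, who had used Trimmomatic for trimming, HISAT2 for alignment (build GRCm38.p6) and HTSeq-count for counting. The FPKM values deposited by the authors come from Cufflinks. Tool versions, the annotation release and the strand setting are not given in the sources used here.

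The test was the quasi-likelihood F test of edgeR 4.0.16 (R 4.3.3) after TMM scaling, with all 12 libraries in 1 model. A minimum count of 10 in filterByExpr kept 15484 of 18514 genes, with Benjamini-Hochberg adjustment over all genes kept. Total counts of 17256953 to 19451055 put a count of 3 at 0.154 to 0.174 CPM, which covers counting error only. FPKM served for comparisons between genes. Log2 CPM for likeness used a prior count of 2. The contrasts that average over swimming or over AOM/DSS, the library division by median and the fit without Model 1 and Model 3 together were chosen after seeing the data. Alternatives were DESeq2's size factors, DESeq2 1.42.0, no filter, only the groups compared, the replicate block, the acinar covariate, limma 3.58.1 on log2(FPKM + 1) and log2(FPKM + 0.1), the study's cutoffs (fold change over 2 or under 0.5) and 12 fits without 1 library. The FPKM fits kept genes with a mean of at least 0.5. Members and lists were chosen with earlier results of these data known. Every member was named, as were up to 3 called genes per list with the largest difference, the top 2 of a marker list and up to 3 genes most like each member. Genes outside this rule (Cd14, Ly96, Irak1, Irak4, Traf6 and Map3k7) were named after their values were seen. Promoters came from RefSeq, and exon overlaps and shared stretches from GENCODE M21 exons of GRCm38. On simulated data with 200 genes changed 4-fold, edgeR recovered 188 for Model against Ctrl with 9 others called. Only genes above a minimum mean count were changed, so this gives no recovery for the smaller differences of the members or for counts as low as those of Tlr6.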

Additional observations from a re-analysis of the deposited data

How the results depend on the processing

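With 3 mice per group and 23 to 196 reads for Tlr6, Tlr7, Tlr8 and Tlr9, calls near the threshold moved with single libraries, and the causes of the changes given here were not tested. The planned library division by summed acinar counts put all 12 libraries on 1 side and could not be fitted, and the fit of only the groups compared does not exist for contrasts over all groups. All Model libraries lie over the division by median and all Model_Swim libraries under it. The limma fits with a filter leave out Tlr6.

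Of the members called in Model against Ctrl (4), the fit of only the groups compared gave 2, the acinar covariate 0, the study's cutoffs 1, and fits without 1 library 1 to 5. Counts from the fit without Model 1 and Model 3 together are left out here and below, since 1 Model mouse remains in it. In Model_Swim against Model (0), DESeq2 gave 1 and fits without 1 library 0 to 2. In Ctrl_Swim against Ctrl (1), the library division, each limma fit and the study's cutoffs gave 0, and fits without 1 library 0 to 1. In Model_Swim against Ctrl_Swim (1), DESeq2 gave 3 and the fit of only the groups compared 2. No filter, the acinar covariate, the library division, each limma fit and the cutoffs gave 0, with 0 to 4 without 1 library. For AOM/DSS averaged (5) the library division gave 3 and the cutoffs 0, with 4 to 6 without 1 library. For swimming averaged (1) DESeq2 gave 3, and the acinar covariate, the library division and the cutoffs gave 0, with 1 to 3 without 1 library.

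Of pathway genes called, Model against Ctrl (25) gave 13 with the acinar covariate and 14 with the cutoffs, and 18 to 28 without 1 library. Model_Swim against Model (0) gave 0 to 2 without 1 library. Ctrl_Swim against Ctrl (0) gave 1 with DESeq2. Model_Swim against Ctrl_Swim (9) gave 2 with the library division, 4 with limma and no filter, and 2 to 12 without 1 library. AOM/DSS averaged (31) gave 10 with the cutoffs and 22 to 30 without 1 library, and swimming averaged (0) gave 1 with DESeq2 and 0 to 2 without 1 library.

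The replicate numbers did not pair the mice. Over 15 pairs of the same number the correlation of deviations ran from -0.261 to 0.564, 4 pairs were over 0.1 and 3 of 12 libraries were most like their own number. With the replicate block, Ctrl_Swim against Ctrl and Model_Swim against Ctrl_Swim each called 0 members, and the latter called 0 pathway genes. The block also turned the sign of Tlr7 (-0.026), Tlr9 (-0.21) and Myd88 (-0.0025) in Ctrl_Swim against Ctrl and of Myd88 for swimming averaged (-0.022).

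No member with a call changed sign. Members with no call did so as follows, in log2 units. In Model against Ctrl, Tlr1 was 0.085 with the acinar covariate, 0.038 without Model 1 and Model 3 together and 0.015 in each limma fit, and Tlr4 was 0.00021 with only the groups compared, 0.091 with limma on log2(FPKM + 1), filtered or not, and 0.10 on log2(FPKM + 0.1). In Model_Swim against Model, the acinar covariate gave Tlr1 -0.21, Tlr7 0.049 and Tlr8 -0.0075, and leaving out Model 1 and Model 3 gave Tlr1 -0.098 and Tlr3 0.016. In Ctrl_Swim against Ctrl, Tlr6 was 0.0076 with unfiltered limma, and the library division gave Tlr9 -0.21 and Myd88 -0.071. In Model_Swim against Ctrl_Swim, Myd88 was -0.050 with the library division, -0.0037 without Model 1 and Model 3 together, -0.020 with limma on log2(FPKM + 1), filtered or not, and -0.021 on log2(FPKM + 0.1). In the interaction, limma gave Tlr3 -0.028 and Tlr5 -0.080 on log2(FPKM + 1), filtered or not, and -0.032 and -0.10 on log2(FPKM + 0.1), and the acinar covariate gave Tlr5 -0.038. For swimming averaged, the acinar covariate gave Tlr1 -0.092, Tlr7 0.10 and Myd88 -0.045, leaving out Model 1 and Model 3 gave Tlr1 -0.0062, Tlr7 0.015 and Tlr9 0.052, and the library division gave Tlr8 0.14 and Myd88 -0.15.

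Over the fits without 1 library, further changes of sign fell in these ranges, each of a difference with no call in the fit of all libraries. In Model against Ctrl the range was -0.15 to 0.046 for Tlr1, -0.037 to 0.057 for Tlr4 and -0.38 to 0.014 for Tlr5. In Model_Swim against Model it was -0.095 to 0.10 for Tlr1, -0.16 to 0.081 for Tlr3, -0.20 to 0.25 for Tlr8 and -0.13 to 0.050 for Myd88. In Ctrl_Swim against Ctrl it was -0.23 to 0.11 for Tlr6 and -0.18 to 0.42 for Tlr9, and in Model_Swim against Ctrl_Swim it was -0.072 to 0.043 for Myd88. In the interaction it was -0.19 to 0.0064 for Tlr1, -0.014 to 0.26 for Tlr2, -0.019 to 0.22 for Tlr3 and -0.19 to 0.21 for Tlr5. For swimming averaged it was -0.00031 to 0.097 for Tlr1, -0.21 to 0.019 for Tlr8, -0.25 to 0.046 for Tlr9 and -0.034 to 0.059 for Myd88.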
